A study of Mus musculus with 12 samples.

Results

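The rows described here are the genes of the constitutive proteasome in mouse bone marrow. They were taken as every row whose gene symbol starts with Psma, Psmb, Psmc, Psmd or Psme, without the immunoproteasome genes Psmb8, Psmb9, Psmb10, Psme1 and Psme2, and with a mean of at least 10 normalised counts over the 12 samples. The rule found 35 of the 23134 rows, and all 35 passed the filter for testing. Of these, 32 encode subunits of the 20S core and the 19S cap, chaperones that assemble the 19S cap, or alternative caps. The other 3 rows carry the prefix but belong elsewhere: Psmc3ip encodes a factor of meiotic recombination, Psma5-ps is annotated as a processed pseudogene, and Psme2b is a near copy of the immunoproteasome cap gene Psme2. Psma7, Psma8, Psmb1, Psmc2 and Psmd2, together with Psmb8 and Psmb9, were not analysed here.

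The proteasome is the barrel-shaped protease that degrades proteins marked with ubiquitin. Its 20S core stacks rings of alpha subunits, which form the gate, around rings of beta subunits, of which Psmb5, Psmb6 and Psmb7 carry the chymotrypsin-like, caspase-like and trypsin-like active sites. The 19S cap holds a base with a ring of ATPases, which unfold the substrate, and a lid that removes ubiquitin. Interferon gamma induces Psmb8, Psmb9 and Psmb10, which replace Psmb5, Psmb6 and Psmb7 in the immunoproteasome, and the PA28 cap encoded by Psme1 and Psme2. The other core subunits and the 19S cap are not replaced, so a change in them is not particular to the constitutive form. Plasma cells and myeloma cells, which make large amounts of antibody, depend on proteasome activity, and the myeloma drug bortezomib binds the Psmb5 site.

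RNA was sequenced from total bone marrow cells of wild-type C57BL/6 mice that had all been injected intravenously with Vk12653, a transplantable mouse myeloma line from the Vk*MYC model, in which MYC is switched on in germinal centre B cells. Day 0 is untreated marrow, taken 10 days after the injection. Days 4, 11 and 18 are marrow from mice given 10 µg of 3H3, an antibody that activates CD137 (a costimulatory receptor of T cells), by intraperitoneal injection 2 times a week, and correspond to 14, 21 and 28 days after the injection. Each group had 3 samples. Time under antibody and time since the injection rose together, untreated marrow of a later day was not analysed here, so their effects cannot be told apart. The labels do not say that the samples came from separate mice, so p-values measure only the spread between these samples. In bulk marrow, fewer cells of a type and less RNA per cell cannot be told apart.

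The values are normalised counts, deposited as whole numbers. They summed to 19.16 to 20.84 M per sample, and the spacing of low values put the reads behind them at 16 to 25.2 M, with 16 to 17.8 M at day 4 and 21.6 to 25.2 M at day 0. No sample was a copy of another: over 66 pairs, at most 0.928% of values were equal. Markers of mature neutrophils made up the largest of the marker sums examined, at 1351061 to 1873113 normalised counts per sample, and erythroid, B cell, T cell, plasma cell and monocyte markers were all present, with no measured marker at 0 in every sample.

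The promoters of 5 genes are shown as examples, and whether the motifs relate to how the genes varied between samples was not tested. Psma5 and Psmd14 are the subunits called on more than 1 day, Psmb5 and Psmb6 carry a match upstream to the core of the antioxidant response element, the motif bound by Nfe2l1 with small Maf proteins, and Psme3 encodes an alternative cap. Each run is the 250 bases before the RefSeq start on GRCm38.p6, from 5′ to 3′ along the gene. The positions are chr3:108256676-108256925 on the plus strand for Psma5, chr2:61711444-61711693 on the plus strand for Psmd14, chr14:54617996-54618245 on the minus strand for Psmb5, chr11:70525107-70525356 on the plus strand for Psmb6 and chr11:101315963-101316212 on the plus strand for Psme3. Capitals mark matches, on either strand, to TGACNNNGC (the antioxidant response element core), CCAAT (the NF-Y motif), CCGGAAG (an ETS motif) or GGGCGG (the Sp1 motif), and no matches in these 5 runs shared a base.
Psma5: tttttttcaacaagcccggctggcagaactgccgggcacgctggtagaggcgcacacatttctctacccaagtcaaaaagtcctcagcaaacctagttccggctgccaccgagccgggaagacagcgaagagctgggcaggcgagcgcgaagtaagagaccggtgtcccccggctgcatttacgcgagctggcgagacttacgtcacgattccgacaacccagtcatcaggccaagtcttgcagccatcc
Psmd14: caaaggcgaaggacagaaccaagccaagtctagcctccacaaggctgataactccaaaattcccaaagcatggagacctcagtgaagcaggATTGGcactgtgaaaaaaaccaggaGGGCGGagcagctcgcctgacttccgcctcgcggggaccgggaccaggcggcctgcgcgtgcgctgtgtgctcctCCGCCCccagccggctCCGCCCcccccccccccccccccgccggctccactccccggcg
Psmb5: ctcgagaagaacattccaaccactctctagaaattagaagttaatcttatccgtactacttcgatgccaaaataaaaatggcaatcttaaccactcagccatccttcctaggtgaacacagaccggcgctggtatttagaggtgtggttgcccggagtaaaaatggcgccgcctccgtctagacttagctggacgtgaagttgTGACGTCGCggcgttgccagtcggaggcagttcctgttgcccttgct
Psmb6: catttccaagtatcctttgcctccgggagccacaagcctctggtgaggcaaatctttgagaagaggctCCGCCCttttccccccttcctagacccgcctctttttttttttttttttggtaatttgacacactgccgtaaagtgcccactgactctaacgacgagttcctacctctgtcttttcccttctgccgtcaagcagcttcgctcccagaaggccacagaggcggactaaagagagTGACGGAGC
Psme3: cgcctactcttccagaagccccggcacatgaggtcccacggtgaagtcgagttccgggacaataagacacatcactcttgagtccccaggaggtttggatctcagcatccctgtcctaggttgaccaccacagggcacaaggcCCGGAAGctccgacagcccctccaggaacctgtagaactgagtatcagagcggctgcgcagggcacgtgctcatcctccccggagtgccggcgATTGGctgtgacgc

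The table of promoters held 27 of the 32 subunit, chaperone and cap genes. TGACNNNGC occurred in 5 of the 27, which is 18.5%, beside 13.8% of the 9901 tested genes with a promoter in the table and 11.5% of all 27018. The matches were in Psmb5, where the motif began 47 bases upstream, in Psmb6, where it began 9 bases upstream, and in Psmc6, Psmd9 and Psmd12. CCGGAAG occurred in 9 of the 27, or 33.3%, beside 14.6% of tested genes. CCAAT occurred in 10, or 37%, beside 39.8%, and GGGCGG in 16, or 59.3%, beside 60%. The Psma5 run held none of the 4 motifs. A match describes letters and does not show that a factor binds there.

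Before treatment the subunits differed widely in level per kilobase of exon, an order that also depends on the annotated lengths used. Psma1 and Psma2 had means of 3060 and 2780 normalised counts at day 0. Over lengths of 1241 and 2911 bases these became 2470 and 956 per kilobase. Psmb3, a structural beta subunit, stood highest at 2850 ± 261 normalised counts per kilobase (SD, n = 3), followed by the alpha subunits Psma1 at 2470 ± 87.4 and Psma6 at 2360 ± 185. Of the 3 catalytic subunits, Psmb6 stood at 1930 ± 229, above Psmb7 at 753 ± 49.3 and Psmb5 at 635 ± 45.3. The assembly chaperones Psmd10, Psmd9 and Psmd5 were the lowest of the 32, at 378 ± 41.7, 279 ± 30.4 and 260 ± 14.2. Along this order, 25 of the 34 neighbouring pairs among the 35 rows had overlapping samples at day 0, so most neighbours could not be ranked. Psmb3 lay apart from Psma1 below it, and Psmb7 from Psmb5.

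**Figure D1:**
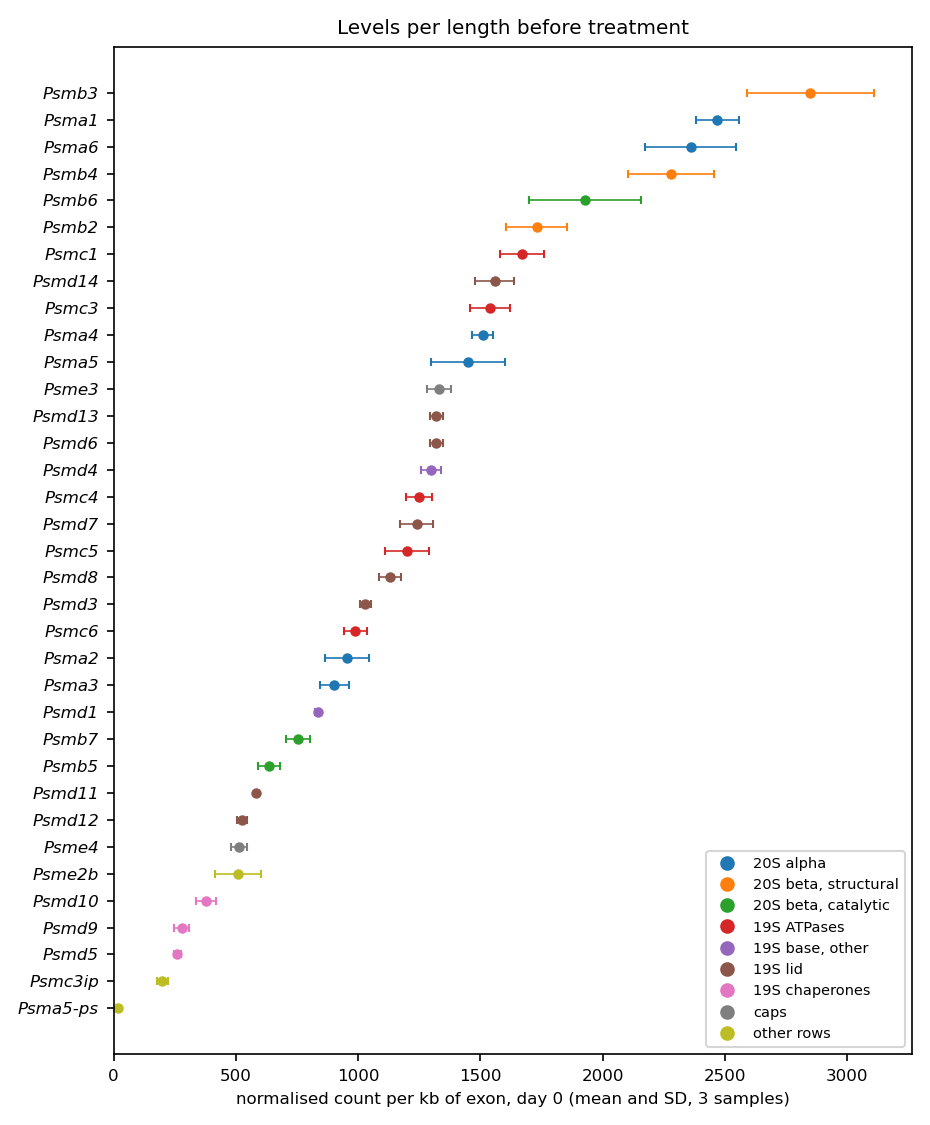
Level of each of the 35 rows in untreated marrow, as normalised counts per kilobase of exon on a linear axis, with points for the mean of 3 samples, bars for the SD and colours for the role. Core subunits such as Psmb3 (2850) are at the top, Psmb7 (753) and Psmb5 (635) in the lower part, and the pseudogene row Psma5-ps (16.8) at the bottom.

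Most of the 35 rows were slightly higher in treated than in untreated marrow, and few passed the test one by one. The test was limma on log2(normalised count + 1), with p-values adjusted by Benjamini-Hochberg over the 14883 genes tested and a call at an adjusted p under 0.05. At day 4, 1 of the 35 rows was called higher (Psmd14), while 2.4% of all genes tested were called higher. At day 11, 2 were called higher (Psma5 and Psmd14) beside 3.2% of all genes, and at day 18, 4 were called higher (Psma4, Psma5, Psmb2 and Psmd14) beside 5.29%. None was called lower by limma at days 4, 11 or 18, where 2.24%, 2.12% and 3.91% of all genes were, and none was lower at an unadjusted p under 0.05. The moderated F test over the 4 days called 3 of the 35, Psma4, Psma5 and Psmd14, beside 9.47% of all genes. These counts are small, and at day 4 and in the F test they are close to what all genes gave.

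The direction was more uniform than the calls. Of the 32 subunits, chaperones and caps, 31 had a log2 change above 0 at day 4, 30 at day 11 and 30 at day 18, while 51%, 50.5% and 50.1% of all genes tested did. Their median log2 changes were 0.15, 0.18 and 0.15, and the medians of all genes were 0.01, 0 and 0. All 3 treated samples exceeded all 3 untreated ones in 21 of the 35 rows at day 4, 22 at day 11 and 14 at day 18, beside 13.5%, 14.1% and 13.8% of all genes. All 3 lay below in 0, 1 and 0 rows, beside 12.1%, 12.3% and 12.6%. An unadjusted p under 0.05 for a higher level was reached by 14, 20 and 15 of the 35, beside 10.2%, 10.5% and 11.8% of all genes. The 3 comparisons share the same untreated samples, so they are not independent of each other. Nor are the genes within a comparison, because they varied together from sample to sample, as described below. Around the day means the 32 genes had a median SD of 0.082 on the log2 scale, beside 0.174 for all genes tested. A small difference therefore separates samples more easily in these genes than in most.

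**Figure D2:**
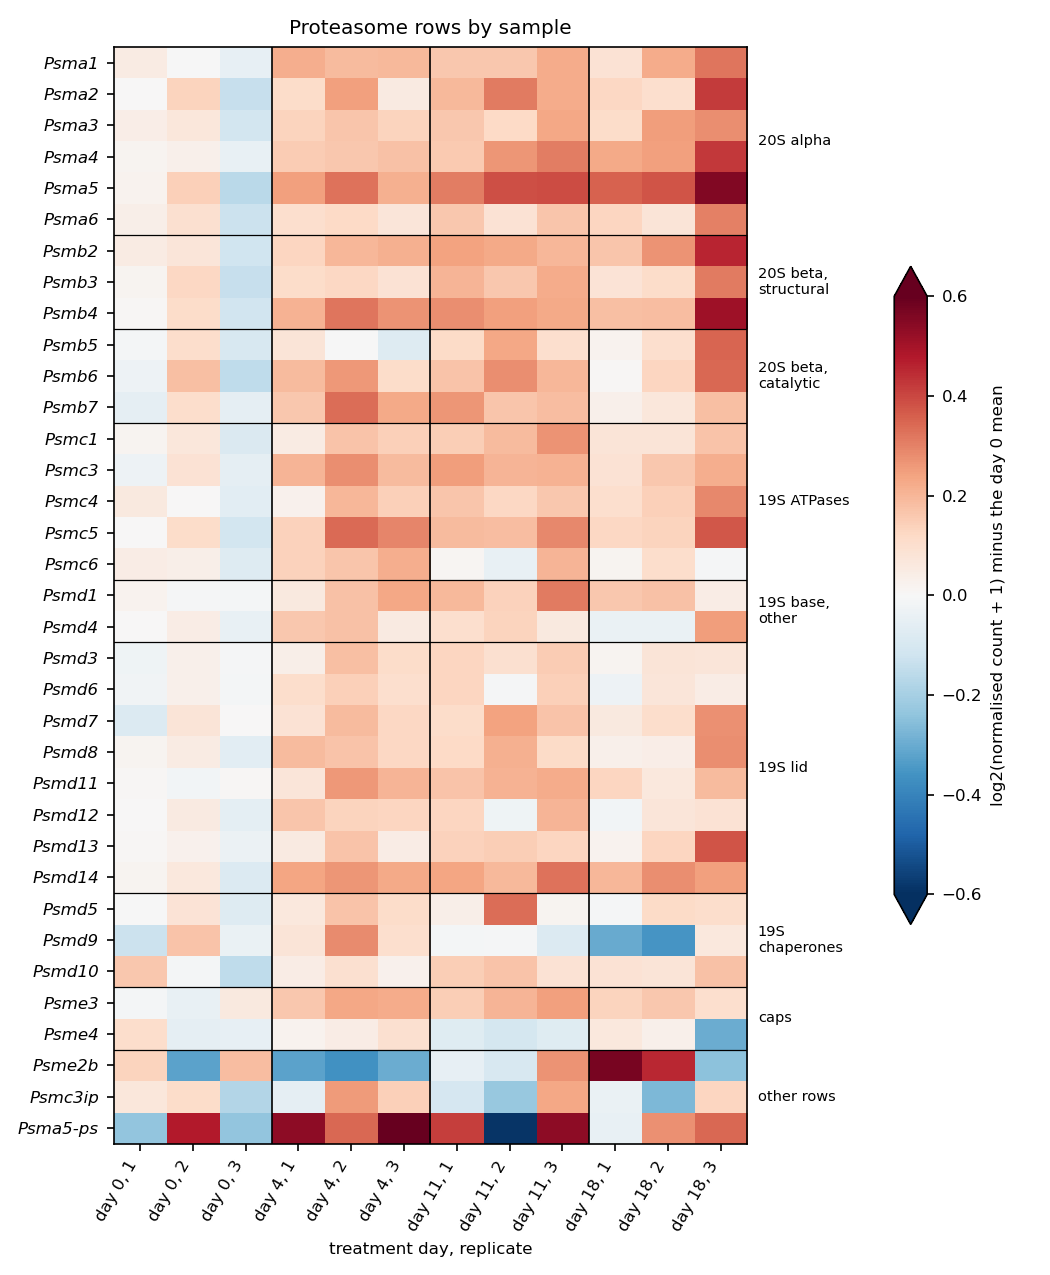
Log2(normalised count + 1) of the 35 rows in each of the 12 samples, minus the mean of the day 0 samples, with rows ordered by role and samples by day. Red cells fill most of the day 4, 11 and 18 columns for the core and 19S rows, and the palest red among these columns is that of day 18 replicate 1, where the median over 32 genes was 0.08.

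Untreated replicate 3 and day 18 replicate 3 stood apart in these genes. Untreated replicate 3 was the lowest of the 12 samples for 25 of the 32 genes, and day 18 replicate 3 was the highest for 18. Their median differences from the day 0 mean were -0.06 and 0.26 on the log2 scale, while the median of all genes was 0 in both. The other day 18 samples stood at 0.08 and 0.11, close to untreated replicate 2 at 0.07, and the 6 samples of days 4 and 11 stood between 0.12 and 0.2. Leaving out day 18 replicate 3 lowered the day 18 median from 0.15 to 0.09. Members called at days 4, 11 and 18 were then 7, 7 and 5, and 0, 0 and 1 without untreated replicate 3. Calls over all genes, 691, 792 and 1369 with every sample, were 1088, 1132 and 1369 without day 18 replicate 3, and 300, 444 and 813 without untreated replicate 3. Leaving out both samples, a choice made after seeing the data, lowered the day 18 median to 0.04, with 0.12 at day 4 and 0.13 at day 11. This left 0, 1 and 2 members called. The reason for the place of these samples was not tested.

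**Figure D3:**
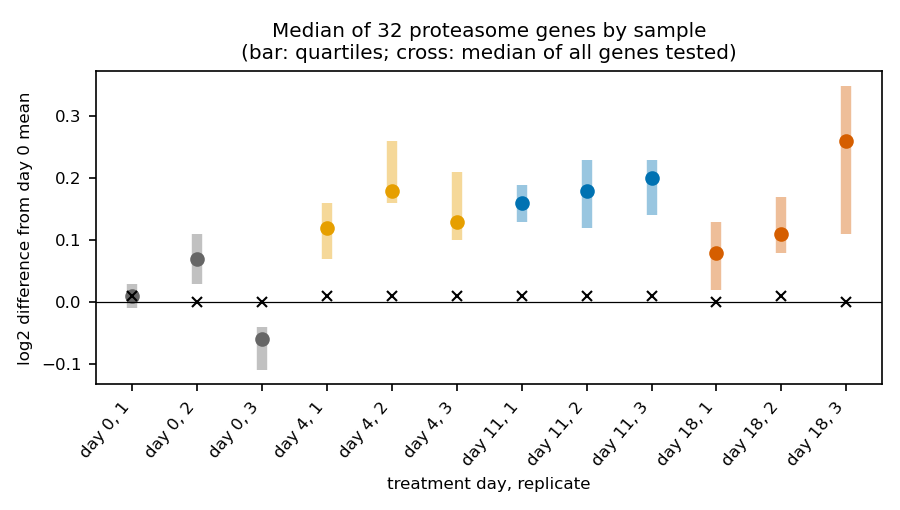
Median over the 32 subunit, chaperone and cap genes of the log2 difference from the day 0 mean, by sample, with bars for the quartiles and crosses for the median of all genes tested. All 9 treated samples lie above the untreated samples, between 0.08 and 0.26, and the crosses lie at 0 or 0.01.

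Summed over the 32 genes, the normalised counts were 66919, 68855 and 63393 at day 0, 72492, 76095 and 73662 at day 4, 73926, 74276 and 75848 at day 11, and 70644, 72698 and 78284 at day 18. Every treated sample had a higher sum than every untreated sample, although day 18 replicate 1 was close to untreated replicate 2. The sum was 0.34% ± 0.0167 of all normalised counts at day 0 and 0.368% ± 0.0205, 0.373% ± 0.0112 and 0.365% ± 0.0211 at days 4, 11 and 18 (SD, n = 3 each). As a share, the smallest treated value, 0.348% in day 4 replicate 1, lay below the 0.359% of untreated replicate 2, so the groups overlapped on this scale.

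The alpha ring held Psma5, the member with the largest log2 change of the 35 rows at days 11 and 18. All 6 measured alpha genes had log2 changes above 0 on each day, with medians of 0.15, 0.21 and 0.21 at days 4, 11 and 18. Psma5, one of the subunits that form the ring, was called at day 11 and day 18. Its normalised counts were 1824, 1979 and 1602 at day 0, 2128, 2250 and 2084 at day 4, 2223, 2344 and 2353 at day 11, and 2295, 2334 and 2640 at day 18. Every treated sample was above every untreated one, and the highest value was in day 18 replicate 3. The log2 change was 0.26 ± 0.08 at day 4 (limma adjusted p = 0.0847), 0.36 ± 0.08 at day 11 (limma adjusted p = 0.019) and 0.43 ± 0.08 at day 18 (limma adjusted p = 0.0044), the last a rise of 34.7%. The day 18 call was kept in each leave-one-out fit, with changes of 0.35 to 0.5. The day 11 call was lost without untreated replicate 3, at 0.28, and without day 11 replicate 2 or 3, at 0.35.

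Psma4, also an alpha ring subunit, was called at day 18 and missed the threshold at days 4 and 11. Its normalised counts were 1776, 1797 and 1704 at day 0, 1957, 1966 and 1989 at day 4, 1964, 2111 and 2179 at day 11, and 2062, 2084 and 2362 at day 18. The treated samples all lay above the untreated ones, without overlap. The log2 change was 0.16 ± 0.07 at day 4 (limma adjusted p = 0.188), 0.24 ± 0.07 at day 11 (limma adjusted p = 0.0516) and 0.30 ± 0.07 at day 18 (limma adjusted p = 0.0124). Without untreated replicate 3 the day 18 change was 0.28 and was no longer called. Psma1, Psma2, Psma3 and Psma6 were not called, with day 18 changes of 0.21, 0.21, 0.21 and 0.17.

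The structural beta subunits had changes close to those of the alpha ring, with median log2 changes of 0.18, 0.22 and 0.29 over Psmb2, Psmb3 and Psmb4. Psmb2 was the member called, at day 18. Its normalised counts were 1532, 1557 and 1363 at day 0, 1620, 1699 and 1718 at day 4, 1749, 1735 and 1701 at day 11, and 1665, 1787 and 2033 at day 18. All treated samples were above all untreated ones, with day 18 spread more widely than the other days. The log2 change was 0.18 ± 0.08 at day 4 (limma adjusted p = 0.212), 0.22 ± 0.08 at day 11 (limma adjusted p = 0.124) and 0.30 ± 0.08 at day 18 (limma adjusted p = 0.0283). The day 18 call was lost without untreated replicate 3 (0.24), without day 18 replicate 2 (0.31) and without day 18 replicate 3 (0.22).

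**Figure D4:**
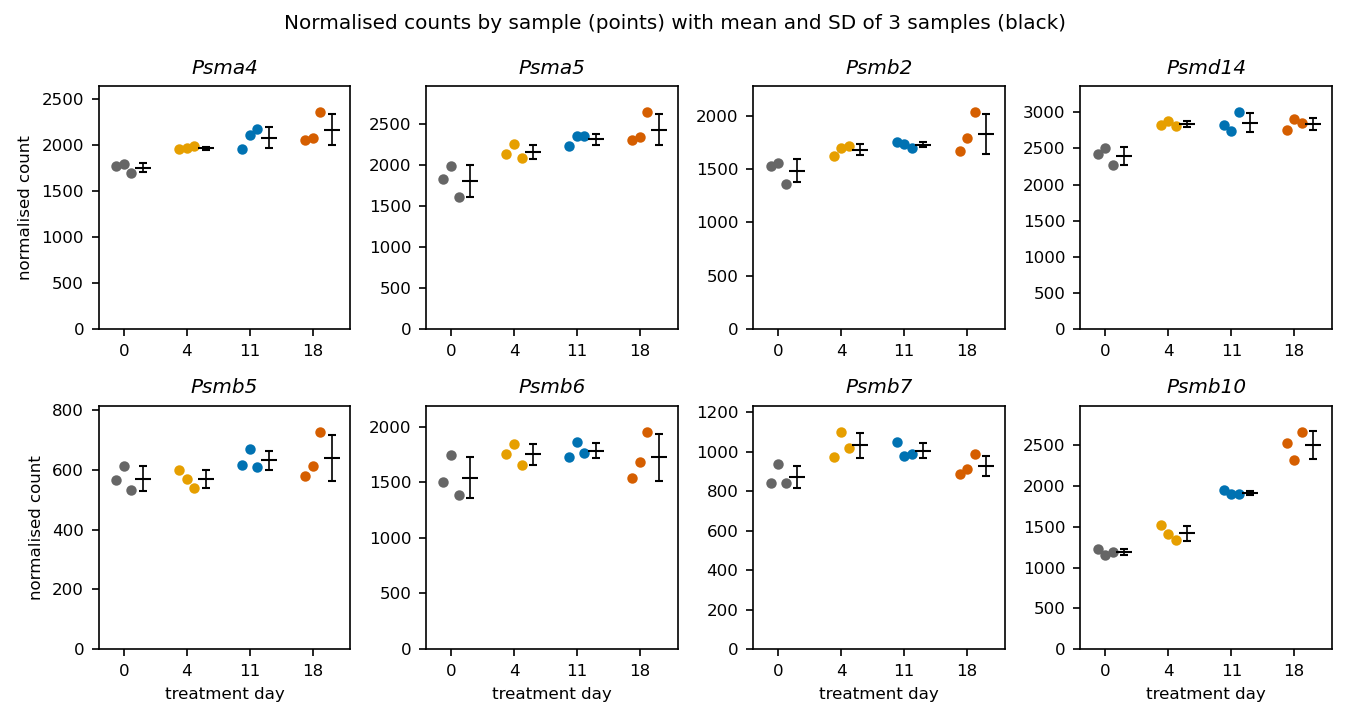
Normalised counts by treatment day for the 4 called members (upper row) and for the catalytic subunits with the immunoproteasome gene Psmb10 (lower row), with points for samples and black marks for the mean and SD of 3 samples, on linear axes from 0. Psma5 runs from 1602 to 1979 at day 0 and from 2295 to 2640 at day 18, Psmb5 from 533 to 614 and from 579 to 727, and Psmb10 from 1149 to 1227 and from 2317 to 2665.

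None of the 3 catalytic subunits passed the test on any day. Psmb5, the chymotrypsin-like subunit, measured 566, 614 and 533 normalised counts at day 0, 601, 569 and 540 at day 4, 617, 669 and 611 at day 11, and 579, 612 and 727 at day 18. Each treated group overlapped with the untreated one. Its log2 change was 0.00 ± 0.09 at day 4, with a 95% interval of -0.2 to 0.2, and 0.15 and 0.16 at days 11 and 18, with intervals of -0.05 to 0.35 and -0.04 to 0.36. A change of the size of that of Psma4 therefore remained within the day 18 interval.

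Psmb6, the caspase-like subunit, measured 1503, 1742 and 1383 normalised counts at day 0, 1753, 1841 and 1658 at day 4, 1729, 1861 and 1762 at day 11, and 1542, 1678 and 1953 at day 18. Untreated replicate 2 reached into the range of all 3 treated days. The log2 changes were 0.19, 0.22 and 0.16, each ± 0.10, with limma adjusted p-values of 0.294, 0.228 and 0.347. Psmb7, the trypsin-like subunit, measured 840, 939 and 840 at day 0, 975, 1101 and 1021 at day 4, 1048, 977 and 991 at day 11, and 889, 913 and 987 at day 18. The samples of days 4 and 11 were above all untreated ones, and those of day 18 overlapped with them. Its log2 changes were 0.24, 0.20 and 0.09, each ± 0.07, with limma adjusted p-values of 0.0834, 0.139 and 0.509.

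The immunoproteasome partner of Psmb7 took another course. Psmb10, which is no member of the constitutive set, measured 1227, 1149 and 1190 normalised counts at day 0, 1520, 1410 and 1334 at day 4, 1948, 1909 and 1904 at day 11, and 2528, 2317 and 2665 at day 18. The ratio of Psmb10 to Psmb7 within a sample does not depend on how the samples were scaled. It was 1.46, 1.22 and 1.42 at day 0, 1.56, 1.28 and 1.31 at day 4, 1.86, 1.95 and 1.92 at day 11, and 2.84, 2.54 and 2.7 at day 18. The ratio overlapped between days 0 and 4, and days 11 and 18 lay above both and apart from each other. The 4 days differed (exact permutation test of the F statistic over 369600 arrangements, p = 0.000649, where the smallest possible is 6.49e-05), and the log2 ratio was 0.98 higher at day 18 than at day 0. It was 0.9 to 1.03 higher when each sample was left out in turn. The ratio shows unequal change of the 2 genes and says nothing on how many protein complexes held either subunit.

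In the 19S base, all 5 measured ATPase genes were above 0 on each day, with median log2 changes of 0.17, 0.20 and 0.16, and none was called. Psmc3, an ATPase of the ring that threads substrate into the core, came nearest. Its normalised counts were 3069, 3327 and 3022 at day 0, 3609, 3806 and 3578 at day 4, 3738, 3612 and 3622 at day 11, and 3333, 3513 and 3653 at day 18. No treated sample was below an untreated one, and the gap at day 18 was narrow. The log2 changes were 0.22, 0.22 and 0.16, each ± 0.06, with limma adjusted p-values of 0.0561, 0.0546 and 0.138. Among the base subunits that are no ATPases, Psmd1, the scaffold that anchors the ubiquitin receptor Adrm1, measured 2638, 2583 and 2578 at day 0, 2704, 2938 and 3051 at day 4, 2971, 2857 and 3231 at day 11, and 2912, 2938 and 2683 at day 18. Its groups did not overlap with day 0 either, and its log2 changes of 0.15, 0.21 and 0.13, each ± 0.07, had limma adjusted p-values of 0.222, 0.0922 and 0.283. Psmd4, a receptor for ubiquitin chains, had log2 changes of 0.13, 0.10 and 0.06.

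In the lid, Psmd14 was called on all 3 days and was the only member called at day 4. It encodes the metalloprotease that cuts ubiquitin chains off the substrate before it enters the core. Its normalised counts were 2424, 2508 and 2266 at day 0, 2827, 2884 and 2809 at day 4, 2826, 2743 and 3002 at day 11, and 2750, 2907 and 2847 at day 18. The lowest treated sample was above the highest untreated one by more than the spread within day 4, and the 3 treated days were level with each other. The log2 change was 0.24 ± 0.06 at day 4 (limma adjusted p = 0.0371), 0.25 ± 0.06 at day 11 (limma adjusted p = 0.0278) and 0.24 ± 0.06 at day 18 (limma adjusted p = 0.024), rises of 18.5%, 19.1% and 18.2%. The day 4 call was lost without any 1 of the 6 samples compared or day 11 replicate 1, the day 11 call without untreated replicate 1 or 3 or day 11 replicate 1 or 3, and the day 18 call without untreated replicate 1 or 3 or day 18 replicate 2. The change itself stayed between 0.20 and 0.28 in these fits.

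The other 7 lid genes, Psmd3, Psmd6, Psmd7, Psmd8, Psmd11, Psmd12 and Psmd13, were not called, and most of them encode the scaffold of the lid. All 8 lid genes, Psmd14 included, lay above the untreated samples without overlap at day 4, 6 did at day 11 and 2 at day 18, beside 13.5%, 14.1% and 13.8% of all genes. Their median log2 changes were 0.14, 0.14 and 0.12. Psmd11, a lid scaffold subunit, measured 1740, 1713 and 1742 normalised counts at day 0 and 1822 to 2073, 1952 to 2018 and 1807 to 1978 at days 4, 11 and 18. It and Psmd14 were the 2 lid genes without overlap at day 18.

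**Figure D5:**
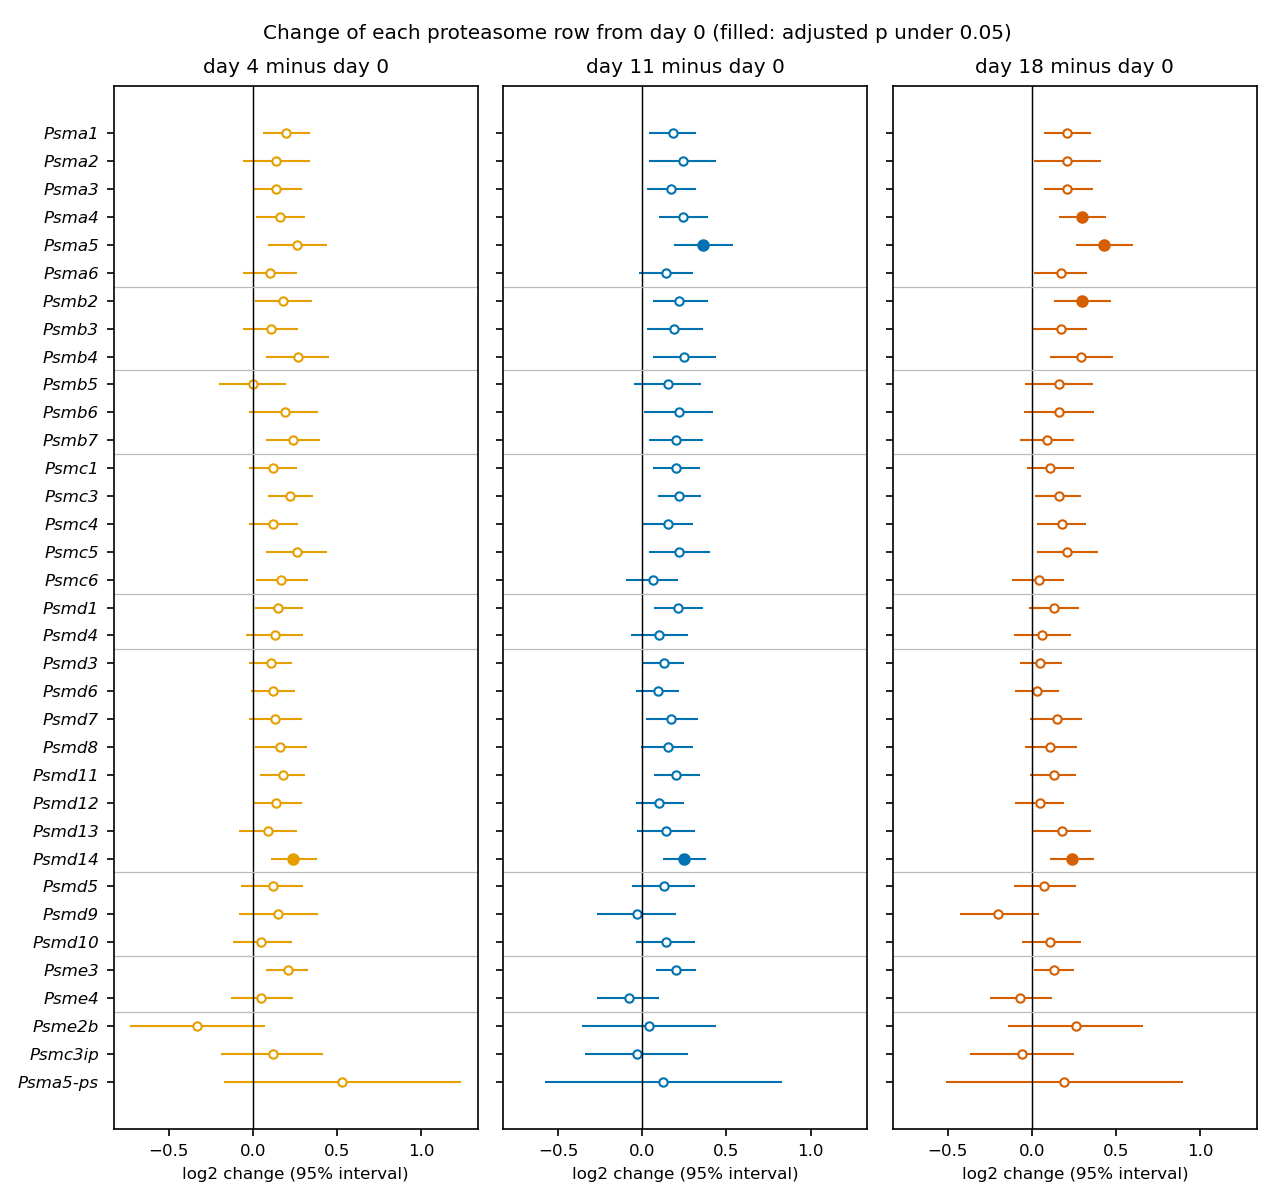
Log2 change of each of the 35 rows from day 0 at days 4, 11 and 18, with bars for the 95% interval and filled points for a limma adjusted p under 0.05. Filled points are Psmd14 at day 4, Psma5 and Psmd14 at day 11, and Psma4, Psma5, Psmb2 and Psmd14 at day 18, and nearly all other points lie right of 0 with wide bars for the 3 rows at the bottom.

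Among the assembly chaperones and among the alternative caps, the sign of the log2 change differed between genes at days 11 and 18. None of these genes was called, and differences between them were not tested. Psmd9, a chaperone of the 19S base, measured 660, 813 and 702 normalised counts at day 0, 763, 878 and 775 at day 4, 716, 719 and 683 at day 11, and 586, 564 and 755 at day 18. All treated days overlapped with day 0. Its log2 change was 0.15 ± 0.11 at day 4, -0.03 ± 0.11 at day 11 and -0.20 ± 0.11 at day 18, the lowest of the 35 rows at that day, with limma adjusted p-values of 0.477, 0.903 and 0.309. The other chaperones, Psmd5 and Psmd10, had log2 changes of 0.05 to 0.14 and were not called.

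Psme3, which forms the nuclear PA28 gamma cap that opens the core without ubiquitin, measured 3526, 3441 and 3698 normalised counts at day 0, 3981, 4169 and 4144 at day 4, 3940, 4096 and 4210 at day 11, and 3893, 3979 and 3810 at day 18. All treated samples were above the untreated ones. The log2 changes were 0.21, 0.20 and 0.13, each ± 0.06, with limma adjusted p-values of 0.0584, 0.0608 and 0.184. Psme4, the large single-chain cap also known as PA200, measured 3585, 3205 and 3216 at day 0, 3375, 3431 and 3557 at day 4, 3171, 3091 and 3169 at day 11, and 3485, 3407 and 2714 at day 18. Its day 11 samples lay just below the untreated ones, the single row of the 35 with this order in a comparison with day 0. The log2 changes were 0.05, -0.08 and -0.07, each ± 0.09, with limma adjusted p-values of 0.785, 0.638 and 0.708. Without day 18 replicate 3, the lowest of its 12 values, the day 18 change was 0.05.

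None of the 3 rows outside the complex was called. Psme2b measured 462, 337 and 478 normalised counts at day 0, 337, 327 and 342 at day 4, 406, 394 and 507 at day 11, and 624, 575 and 354 at day 18. Its log2 changes of -0.33, 0.04 and 0.26, each ± 0.19, were within the wide spread of its samples (limma adjusted p = 0.356, 0.931 and 0.451). Its transcript is 99.4% identical to that of Psme2 over 794 of 837 bases, so reads of one gene could be counted for the other or left out of both. Psma5-ps measured 10 to 26 normalised counts in the 12 samples and is 98.6% identical to the Psma5 transcript over all of its 952 bases. Psmc3ip measured 213 to 307 normalised counts and had log2 changes of 0.12, -0.03 and -0.06. Exons of 11 of the 35 rows overlap another annotated gene, 9 of them on the other strand. The longest overlap is 1849 bases of Psmd9 with Gm26745 on the other strand, and Gm26745 is not among the rows analysed here. Others include 60 bases of Psma5 with 1700010K24Rik and 405 bases of Psmb7 with Nek6. Whether the counting used strand is not given in the sources used here.

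Between the treated days, limma called none of the 35 rows. At day 11 against day 4, 1.68% of all genes were called, and 0 of the 35 had an unadjusted p under 0.05, as 11.8% of all genes did. At day 18 against day 4, 5.48% of all genes were called, and 2 of the 35 had an unadjusted p under 0.05, as 18% of all genes did. These were Psme2b, with a log2 difference of 0.58, and Psmd9, with -0.35. At day 18 against day 11, 0.00672% of all genes were called, and 0 of the 35 had an unadjusted p under 0.05, as 6.99% of all genes did. The median log2 differences of the 32 subunits, chaperones and caps were 0.02, -0.02 and -0.03 in these 3 comparisons. All 6 alpha genes lay above 0 at day 18 against day 4, with a median of 0.07, beside 7542 of the 14883 genes tested. Below 0 were 4 of the 5 ATPase genes and 6 of the 8 lid genes, with medians of -0.05 and -0.05, beside 7338 of all genes. In each alpha gene the highest day 18 value was that of replicate 3, and these medians were not recomputed without it. Without day 18 replicate 3, 2 members were called at day 18 against day 4.

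Apart from the days, the 32 genes varied together from sample to sample. After the mean of each day was subtracted, their mean pairwise Pearson correlation over the 12 samples was 0.387, beside 0.0203 among 6169 genes with a mean of at least 500 normalised counts and 0.000356 among all genes tested. These values describe points that share a library and a scaling factor, and carry no test. Over many genes positive and negative correlations can cancel, so the wider means are no baseline for a small set. They were not recomputed without untreated replicate 3 and day 18 replicate 3, the samples that stood apart in these genes. Psmb4 and Psma5 followed the mean of the other 31 most closely, each with r = 0.93. For the 12 genes of the 20S core r was 0.71 (Psma1) to 0.93, and for the 8 lid genes 0.36 (Psmd6) to 0.85 (Psmd13). Psme4, Psme3 and Psmd1 ran against it, with r = -0.65, -0.39 and -0.21. The median SD around the day means was 0.082 on the log2 scale for the 32 genes and 0.104 for genes with a mean of at least 500.

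Other genes of the ubiquitin and proteasome pathway were read from lists of their own. Of the 3 measured immunoproteasome genes, Psme1 was called higher at day 4 and Psmb10, Psme1 and Psme2 at days 11 and 18, where 3.2% and 5.29% of all genes were. At day 18 their log2 changes were 1.07 ± 0.07, 0.73 ± 0.06 and 0.89 ± 0.07 (limma adjusted p = 4.35e-07, 4.69e-06 and 2.98e-06), beside a highest change of 0.43 among the 35 constitutive rows. Of 9 tested genes for assembly factors, regulators and other subunits, 1 was called at day 4, 1 at day 11 and 2 at day 18, all higher, beside 2.4%, 3.2% and 5.29% of all genes. They were Uchl5, a deubiquitinase bound to the 19S base, with log2 changes of 0.26, 0.26 and 0.24, and at day 18 Pomp, the chaperone that matures the 20S core. Pomp measured 1764, 1915 and 1689 normalised counts at day 0 and 2138, 2180 and 2024 at day 4. It measured 2168, 2158 and 2118 at day 11 and 2126, 2280 and 2630 at day 18. Every treated sample was above every untreated one, and the highest was day 18 replicate 3. The log2 change at day 18 was 0.39 ± 0.08 (limma adjusted p = 0.00687).

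Of 8 genes for the control of proteasome gene expression, 1, 0 and 1 were called higher at days 4, 11 and 18. Beside them, 2.4%, 3.2% and 5.29% of all genes were, and none of the 8 was called lower. At day 11, 1 was higher at an unadjusted p under 0.05, beside 10.5% of all genes. At day 4, 5 of the 8 had a log2 change below 0. Lower at an unadjusted p under 0.05 at day 4 were 3 of the 8, beside 1463 of the 14883 genes tested. Mafk, a small Maf partner of Nfe2l1 and Nfe2l2, measured 936, 934 and 947 normalised counts at day 0, 1348, 1335 and 1437 at day 4, 999, 1002 and 991 at day 11, and 1029, 909 and 935 at day 18. It was thus high in the day 4 samples alone among these 12, with a log2 change of 0.55 ± 0.06 (limma adjusted p = 0.000228). Mafg, the other small Maf listed, was not called, at 3630 ± 229 at day 0 and 3160 ± 366 at day 4 (SD, n = 3). Keap1, which holds Nfe2l2 for degradation, was called at day 18 with 0.24 ± 0.07 (limma adjusted p = 0.0355). Nfe2l1, the factor that raises proteasome genes when the proteasome is inhibited, had log2 changes of -0.03, 0.06 and 0.10, and Nfe2l2 of -0.17, -0.01 and -0.06, none of them called.

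Of 13 genes for ubiquitin and the delivery of substrates, 1 was called at day 4, 1 at day 11 and 1 at day 18, all higher, beside the same 2.4%, 3.2% and 5.29% of all genes. Zfand2a, a stress-induced partner of the proteasome, measured 462, 504 and 480 normalised counts at day 0, 777, 710 and 803 at day 4, 526, 507 and 496 at day 11, and 569, 522 and 516 at day 18. Day 4 stood above all other samples, with a log2 change of 0.66 ± 0.08 (limma adjusted p = 0.000181), and the changes at days 11 and 18 were 0.08 and 0.15. Vcp, the ATPase that extracts ubiquitinated proteins, was called at days 11 and 18, at 0.27 ± 0.07 and 0.25 ± 0.07 (limma adjusted p = 0.0434 and 0.0435).

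Marker sums of several cell types and states moved over the same days, and their part in the results above was not tested. The sum of 12 cell cycle genes was 84994 to 87891 at day 0, 98018 to 110045 at day 4, 101502 to 106688 at day 11 and, on day 18, 92431 to 104121. The sum of 5 neutrophil primary granule genes was 57323 to 59042 at day 0 and 65507 to 79619, 66311 to 83202 and 72762 to 85833 later. Both sums were higher in every treated than in every untreated sample, as was the sum of the 32 constitutive genes. The sum of 7 T cell genes was between 1824 and 3053 at day 0, 3032 and 4896 at day 4, 7312 and 7893 at day 11, and 8006 and 11161 at day 18. That of 7 mature B cell genes was between 17166 and 24754 at day 0, 11240 and 18610 at day 4, 8324 and 9432 at day 11, and 8645 and 13173 at day 18. At days 11 and 18 the T cell sums lay above and the mature B cell sums below every day 0 sample. The sum of 8 erythroid genes was between 23890 and 40944 at day 0, 36352 and 58780 at day 4, 37930 and 44175 at day 11, and 15947 and 38242 at day 18. The sum of 6 plasma cell and myeloma genes was between 4797 and 5924 at day 0, 5555 and 6634 at day 4, 3278 and 4751 at day 11, and 3450 and 5396 at day 18. Erythroid and plasma cell sums overlapped between days 0 and 18, and the plasma cell sums of day 11 lay below all those of day 0. Members of the plasma cell list went opposite ways. Prdm1 had a mean of 86.3 at day 0 and 293 at day 18, and Sdc1 of 502 and 271. Of the 5 tested, 1 was called higher and 1 lower at days 11 and 18. Over all genes, 3.2% and 5.29% were called higher, and 2.12% and 3.91% lower. At day 18, replicate 3 had the lowest cell cycle sum of the 3, 92431, the highest primary granule sum, 85833, and the highest T cell sum, 11161 beside 8006 and 8545 in replicates 1 and 2. A further list held 8 immediate early and heat shock genes (the latter Hspa1a and Hspa1b), which also respond to the handling of tissue. Their sum was 3833 to 7127 at day 0, 43761 to 55934 at day 4 and 7652 to 13627 at days 11 and 18.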

How the data were processed

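RNA from 12 marrow samples was sequenced as pairs of 150-base reads. The authors deposited normalised counts per gene as whole numbers, taken here as a score because their scaling is not given in the sources used here. The submitters' processing notes list the build GRCm38 and, without roles, featureCounts 1.4.6, Subread, STAR 2.3.0 and limma. From the deposited normalised counts, log2(value + 1) was computed here and fitted in limma 3.58.1 under R 4.3.3, with a mean per day over all 12 samples and a prior that follows intensity (residual degrees of freedom 8, prior 5.73). Genes with at least 10 in at least 3 samples were tested, 14883 of 23134, with two-sided p-values adjusted by Benjamini-Hochberg within each comparison. The fit was tested on simulated data. Errors of log2 changes are SE of the model and those of levels SD. Replicates were numbered in sample order, which pairs nothing.

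The members and gene lists were chosen with earlier results of these data known, and 1 listed gene is not reported here. Values per sample are given for the catalytic subunits, the called members, the rows furthest in a direction with no call and the smallest F-test p of each role. Other genes named were chosen after their values were seen. Exon lengths are the union of exons of basic protein-coding transcripts in GENCODE M21. Copies were compared with blastn 2.17.0. Promoters are from RefSeq on GRCm38.p6, matched by symbol for 29 of 35 rows. Depth was estimated from the spacing of values up to 150, and limits the precision of the lowest rows most.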

Additional observations from a re-analysis of the deposited data

Results flagged for a closer look

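The changes of 5 pathway genes, none of them a constitutive subunit, differed between treated days by limma's test of the difference itself, with p-values adjusted over all genes. Psmb10 was higher at day 11 than at day 4 by a log2 difference of 0.44 ± 0.07 (limma adjusted p = 0.00445) and at day 18 than at day 4 by 0.82 ± 0.07 (limma adjusted p = 1.03e-05). Psme1 was higher at day 18 than at day 4 by 0.47 ± 0.06 (limma adjusted p = 0.000505). Psme2 was higher at day 11 than at day 4 by 0.34 ± 0.07 (limma adjusted p = 0.0285) and at day 18 by 0.64 ± 0.07 (limma adjusted p = 0.00012). In all 3 immunoproteasome genes the samples of these days did not overlap.

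The other genes, Mafk and Zfand2a, were lower after day 4. The differences of Mafk were -0.46 ± 0.06 at day 11 and -0.52 ± 0.06 at day 18 (limma adjusted p = 0.00161 and 0.00026). Those of Zfand2a were -0.58 ± 0.08 and -0.51 ± 0.08 (limma adjusted p = 0.0011 and 0.00134). Their samples did not overlap between these days either. The sum of immediate early and heat shock genes was also highest at day 4, and its part was not tested.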

How the results depend on the processing

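The directions of the medians of the 32 genes were kept under every alternative run, at 0.12 to 0.18 at day 4, 0.13 to 0.2 at day 11 and 0.04 to 0.19 at day 18, but the counts of calls were not, and the cause was not tested. Members called at day 4 (1 in the reported fit) were 0 after quantile normalisation, with no filter, with no intensity trend, with the estimated depth as a covariate, with only the 2 groups compared and without untreated replicate 3 and day 18 replicate 3 together, 3 among genes with a mean of at least 40, 12 with sample weights, and 0 to 7 leaving out each sample in turn. At day 11 (2) they were 0 after quantile normalisation, with no trend and with the depth covariate, 5 with the mean of 40, 16 with sample weights, 1 without both samples and 0 to 7 leaving one out. At day 18 (4) they were 2 after quantile normalisation, with no trend and without both samples, 7 with sample weights, 1 with only the 2 groups, and 1 to 7 leaving one out. At day 18 against day 4 (0) they were 2 with sample weights and 0 to 2 leaving one out. The F test (3) gave 1 after quantile normalisation, with no filter and with the depth covariate, 0 with no trend, 14 with sample weights and 0 to 7 leaving one out. The 7 at days 4 and 11 and in the F test came without day 18 replicate 3, which has the lowest sample weight, 0.305, and the 7 at day 18 without day 18 replicate 1.

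Over all genes, the count at day 4 (691) was 416 with no trend, 1817 with sample weights, 69 with the depth covariate and 269 to 1088 leaving one out. At day 11 (792) it was 521, 1914, 449 and 407 to 1132. At day 18 (1369) it was 2056 with sample weights, 912 with only the 2 groups and 800 to 1412 leaving one out. At day 11 against day 4 (250) it was 141 with no trend, 763 with sample weights and 136 to 342. At day 18 against day 4 (815) it was 543 with no trend, 1844 with sample weights, 342 with the depth covariate, 482 with only the 2 groups and 432 to 1116. At day 18 against day 11 (1) it was 3 with no filter, 0 with no trend, 151 with sample weights, 13 with only the 2 groups and 0 to 28. The log2 ratio of Psmb10 to Psmb7 was 0.9 to 1.03 leaving one out.

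Some members changed sign. Psmb5 at day 4 was -0.05 to 0.05 leaving one out, with 0.05 without untreated replicate 2 and 0.04 without day 4 replicate 3. Psmd9 at day 11 was -0.1 to 0.05, with 0.05 without untreated replicate 2. Psme2b at day 11 was -0.12 to 0.13, with -0.03 with sample weights, -0.12 without untreated replicate 2 and -0.07 without day 11 replicate 3. Psme4 at day 18 was -0.13 to 0.05, with 0.02 with sample weights and 0.05 without day 18 replicate 3. Of 858 values of single genes under alternatives, 782 kept direction and call, 40 lost the call and 28 gained it. The ratios of Psmb8 to Psmb5 and Psmb9 to Psmb6 were planned and not run. No paired analysis was possible because the labels carry no replicate numbers. Estimated depth differed between days 0 and 4 without overlap, so the 2 cannot be told apart in that comparison.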
